A study of Mus musculus with 2 samples.

Results

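Genes for histone deacetylases and chromatin remodelling proteins were examined in ribosome-bound RNA from the mouse dentate gyrus. The members were the gene lines whose symbols follow the Hdac, Chd, Smarca to Smarce, Arid or Baz naming series. This gave 48 of 32531 gene lines: 11 Hdac, 9 Chd, 14 Smarc, 10 Arid and 4 Baz symbols. Of these, 47 are protein-coding genes, and Smarca5-ps is a transcribed pseudogene of Smarca5. The rule uses names and no measured value, but the gene family was picked with earlier results of these data known, so its values are given as a description.

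The samples were 2 libraries of 1 group, immunopurified dentate gyrus RNA from adult, untreated mice of the Lypd1-EGFP/Rpl10a line OI82. Cells that use the regulatory sequence of Lypd1 express EGFP fused to the ribosomal protein Rpl10a there, and their ribosomes are pulled down through the tag with the RNA they carry (translating ribosome affinity purification, TRAP). Both libraries carry the tag and both are pull-downs, so every value is a level within the purified RNA and not an enrichment over tissue. Sex, age in weeks and the number of animals behind each library are not given in the labels. The spread between the libraries may therefore be partly technical.

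Histone deacetylases remove acetyl groups from histone tails and from other proteins, and most work inside corepressor complexes such as NuRD, Sin3, CoREST and NCoR. Chromatin remodellers use ATP to slide, eject or exchange nucleosomes, and fall into the SWI/SNF, ISWI, CHD and INO80 families. In neurons, subunits of SWI/SNF are exchanged as progenitors leave the cell cycle, and class IIa deacetylases move between nucleus and cytoplasm with calcium signalling.

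Replicate 1 held 31309643 counts on gene lines and replicate 2 held 32711412. Levels are counts per 1000000 gene counts (CPM). Because CPM grows with transcript length, levels of different genes were compared in CPM per kilobase of exon (CPM per kb). Errors are SD over the 2 libraries. The granule cell markers Prox1 (1100 and 1193 CPM) and Rfx3 (1253 and 1314 CPM) were high, and all 8 markers of that list were detected. No microglial marker of 7 reached 1 CPM in both libraries, and C1qa and C1qb had 0 counts in both. In bulk RNA, fewer cells of a type and less RNA per cell cannot be told apart.

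The promoters of 4 genes on which the results turn are shown here: the paralogous SWI/SNF ATPases Smarca2 and Smarca4, which differed in level, and Arid5b and Arid1b, which differed most between the libraries among the members with a promoter entry. Each is 250 bases before to 50 after a RefSeq transcript start (GRCm38.p6), read 5′ to 3′ on the gene's strand. Capitals mark matches, on either strand, to the cAMP response element TGACGTCA, to its core TGACG or to the AP-1 element TGANTCA, elements bound by factors that act downstream of calcium and cAMP signals. The full element contains the core.
Smarca2, chr19:26604910-26605209, plus strand: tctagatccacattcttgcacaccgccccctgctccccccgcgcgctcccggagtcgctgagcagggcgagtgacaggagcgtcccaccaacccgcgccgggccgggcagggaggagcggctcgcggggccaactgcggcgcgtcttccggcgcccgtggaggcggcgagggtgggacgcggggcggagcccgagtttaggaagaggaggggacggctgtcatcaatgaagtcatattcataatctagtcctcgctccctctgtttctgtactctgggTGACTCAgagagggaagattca
Smarca4, chr9:21615919-21616218, plus strand: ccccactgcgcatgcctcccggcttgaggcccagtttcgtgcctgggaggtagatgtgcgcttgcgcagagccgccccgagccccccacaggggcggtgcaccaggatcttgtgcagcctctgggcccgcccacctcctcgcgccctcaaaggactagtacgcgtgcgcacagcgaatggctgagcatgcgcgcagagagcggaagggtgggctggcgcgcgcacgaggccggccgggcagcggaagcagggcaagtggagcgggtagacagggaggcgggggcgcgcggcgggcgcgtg
Arid5b, chr10:68278677-68278976, minus strand: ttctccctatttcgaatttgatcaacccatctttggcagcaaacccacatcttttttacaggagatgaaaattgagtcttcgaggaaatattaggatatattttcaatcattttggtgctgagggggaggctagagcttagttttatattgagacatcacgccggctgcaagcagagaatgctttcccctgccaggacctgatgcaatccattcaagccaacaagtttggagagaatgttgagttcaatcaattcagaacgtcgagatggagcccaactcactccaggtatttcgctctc
Arid1b, chr17:4994824-4995123, plus strand: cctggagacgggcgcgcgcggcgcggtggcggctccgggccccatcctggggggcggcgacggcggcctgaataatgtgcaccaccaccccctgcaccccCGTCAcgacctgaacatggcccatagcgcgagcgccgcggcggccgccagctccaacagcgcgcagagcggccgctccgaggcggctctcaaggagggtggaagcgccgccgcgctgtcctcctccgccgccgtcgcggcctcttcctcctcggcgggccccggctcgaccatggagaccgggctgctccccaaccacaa
The Smarca2 window held 1 AP-1 match, TGACTCA, and the Arid1b window held 1 core match, read as CGTCA. The Arid1b window lies wholly inside the gene as annotated by GENCODE, downstream of the gene start at 4994332. By that annotation its match is within the gene and not upstream of it. The Smarca4 and Arid5b windows held no match to these letters. Among all 32851 RefSeq windows of this length, 1.79% held the full element, 20.8% the core and 7.81% the AP-1 element. RefSeq windows were matched for 35 of the 48 members, with 45 windows in all, and Baz1a was not among them. Of these 45 windows, 1 held the full element (Baz2b), 16 the core and 4 the AP-1 element. Overlapping windows of the same gene, as for Chd4 and Chd5, were each counted. The core itself contains a CpG, and whether its count follows the CpG content of the windows was not tested. The Arid5b window was poor in CpG, with 7 CpG sites and a GC content of 43.3%. Smarca2 had 29 CpG sites, Smarca4 33 and Arid1b 42. The median was 25 over the member windows and 7 over all windows.

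Most of these genes were present in the ribosome-bound RNA. Of all 32531 gene lines, 38.1% were detected, meaning at least 1 CPM in both libraries, and 13312 had 0 counts in both. That share is also the background for the detection counts of the lists below. Of the 48 members, 45 (93.8%) were detected. The 3 others were Arid3c, with 3 and 1 counts in replicates 1 and 2, Smarca5-ps, with 8 and 1 counts, and Baz1a, which passed 1 CPM in replicate 2 only. The median over the 45 detected members was 6.96 CPM per kb, beside 5.16 over all detected genes with a length. With the longest transcript as length these medians were 10.8 and 7.08, and over all 48 members the median per kilobase of all exons was 5.67 CPM. Levels covered a wide range, from 68.7 ± 5.86 CPM per kb for Chd3 down to 0.0357 ± 0.0260 CPM per kb for Arid3c. The ATPases and scaffolds Chd3, Smarca2, Smarcc2 and the deacetylase Hdac2 led the members. Together the members took 4837 CPM in replicate 1 and 4942 CPM in replicate 2.

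**Figure D1:**
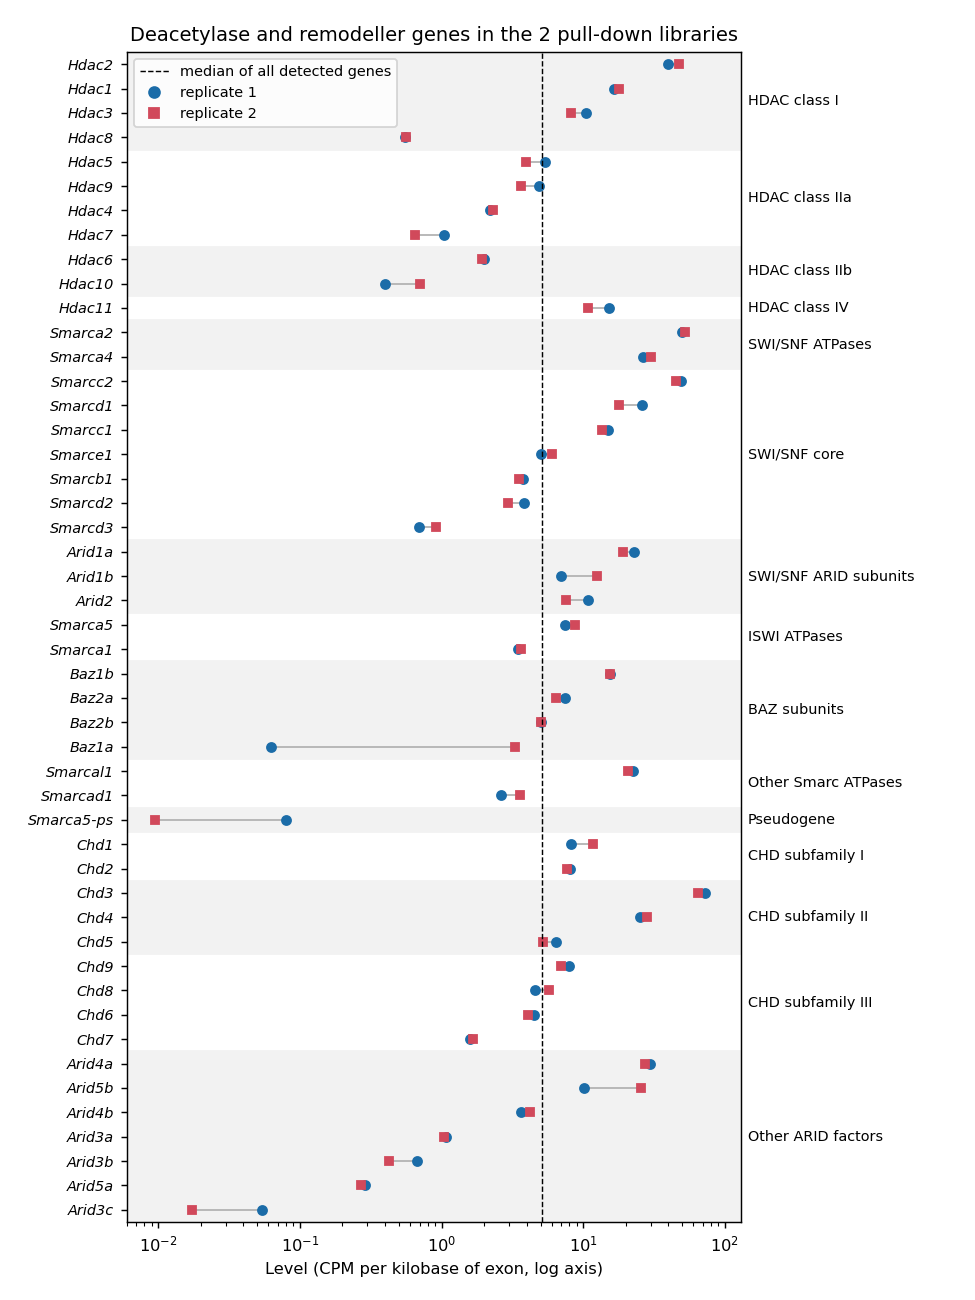
Level of each gene in CPM per kb (log axis) in replicate 1 (circles) and replicate 2 (squares), grouped by family, with the median of all detected genes (5.16) as a dashed line. Chd3, Smarca2, Smarcc2 and Hdac2 lie far to the right. The widest gap between the libraries is that of Baz1a, at 0.0625 and 3.30 CPM per kb. Smarca5-ps, with few counts, also has a wide gap, at 0.0794 and 0.0095 CPM per kb.

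Among the deacetylases, class I enzymes carried most of the signal. Hdac2 stood at 39.4 CPM per kb in replicate 1 and 47.4 in replicate 2, and its close paralogue Hdac1 at 16.4 and 17.8. Both are catalytic subunits of NuRD, Sin3 and CoREST. The ratio of Hdac2 to Hdac1 was 2.40 in replicate 1 and 2.66 in replicate 2, or 1.95 and 2.16 with the longest transcript as length. Hdac3, the catalytic subunit of the NCoR complex, followed at 10.5 and 8.16 CPM per kb. Hdac8, which deacetylates the cohesin subunit Smc3, was scarce at 0.548 and 0.562 CPM per kb. Within class I the order Hdac2, Hdac1, Hdac3, Hdac8 held in each library without overlap.

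Class IIa enzymes, which bind MEF2 factors and shuttle out of the nucleus when phosphorylated, were lower, with a median of 3.25 CPM per kb against 13.2 for class I. Hdac5 (5.35 and 3.95 CPM per kb) and Hdac9 (4.86 and 3.62) overlapped in level, and Hdac4 was at 2.19 and 2.32. Hdac7 was the lowest of the class at 1.04 and 0.652 CPM per kb. Of the exon bases of Hdac4, 22.4% are shared with a gene on the opposite strand, so reads there could have been set aside or assigned to either gene. The order of Hdac5 and Hdac4 also depends on length, since CPM without a length correction gave ratios of 1.35 and 0.947. Hdac6, a cytoplasmic tubulin deacetylase of class IIb, stood at 2.0 and 1.92 CPM per kb, and its relative Hdac10, a polyamine deacetylase, at 0.397 and 0.706. Hdac11, the only class IV enzyme and a remover of fatty acyl groups, was above Hdac3 in each library, at 15.2 and 10.9 CPM per kb, with 17.9% of its exon bases shared with genes on the opposite strand. The sirtuins, NAD-dependent deacetylases listed for comparison, were all detected (7 of 7) with a median of 2.95 CPM per kb.

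SWI/SNF ATPases were well above the median gene. Smarca2, which encodes BRM (chromosome 19, 26605050 to 26778322, plus strand, GRCm38), had 22289 counts in replicate 1 and 24530 in replicate 2. Smarca4, which encodes BRG1 (chromosome 9, 21616169 to 21704230, plus strand), had 5374 and 6374 counts. Per kilobase of exon, Smarca2 stood at 49.9 and 52.6 CPM and Smarca4 at 26.5 and 30.1 CPM, so Smarca2 was higher in each library. The size of this gap depended on the length used. It was 1.88 and 1.75 per kilobase of all annotated exons (14269 bases for Smarca2), and 4.47 and 4.14 per kilobase of the longest transcript (5921 bases). These gene-level counts do not separate the transcript forms of Smarca2.

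The scaffold and accessory subunits were uneven in RNA level, and paralogues differed within the Smarcc and Smarcd groups in each library. Of the scaffolds that dimerise at the core of the complex, Smarcc2 (BAF170) stood at 49.2 and 45.3 CPM per kb and Smarcc1 (BAF155) at 14.9 and 13.6. The ratio of Smarcc2 to Smarcc1 was 3.31 in replicate 1 and 3.33 in replicate 2. Among the Smarcd paralogues (BAF60 proteins), Smarcd1 led at 26.2 and 17.9 CPM per kb. Smarcd2 was at 3.80 and 2.97, and Smarcd3, best known from heart and muscle, at 0.692 and 0.908. The levels of Smarcd3 and Smarcd1 are uncertain, because 48.2% and 12.7% of their exon bases overlap genes on the opposite strand. The tumour suppressor subunit Smarcb1 (3.78 and 3.55 CPM per kb) and Smarce1 (5.02 and 6.0) were lower than the ATPases.

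The ARID subunits decide which form of SWI/SNF is assembled: Arid1a or Arid1b in the canonical BAF form and Arid2 in the PBAF form. Arid1a stood at 22.9 and 19.1 CPM per kb, Arid1b at 6.94 and 12.5, and Arid2 at 10.8 and 7.56. Arid1a was the highest of the 3 in each library, while Arid1b and Arid2 changed places between libraries. The ratio of Arid1b to Arid1a was 0.303 in replicate 1 and 0.652 in replicate 2.

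Further SWI/SNF subunits were taken from a fixed list, and 17 of 17 were detected. Subunits that replace a progenitor form in neurons were set beside those forms. Actl6b (BAF53b), the neuronal actin-like subunit, stood at 11 and 8.12 CPM per kb, and its progenitor counterpart Actl6a at 4.94 and 4.0. Their ratio was 2.24 and 2.03, or 1.59 and 1.44 with the longest transcript as length. Ss18l1, which encodes CREST, stood at 33.4 and 40.0 CPM per kb against 5.02 and 5.89 for Ss18. The PHD-finger subunits followed this order only in part. In each library the neuronal Dpf1 (6.67 and 4.85 CPM per kb) was above Phf10 (3.93 and 4.02) but below Dpf2 (9.23 and 11.3). The neuronal Dpf3 (0.930 and 0.629) was below both Phf10 and Dpf2. All 4 genes of the progenitor set were detected. For scale, the proliferation markers Mki67 and Top2a had means of 0.915 ± 0.347 and 0.162 ± 0.0516 CPM per kb.

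**Figure D2:**
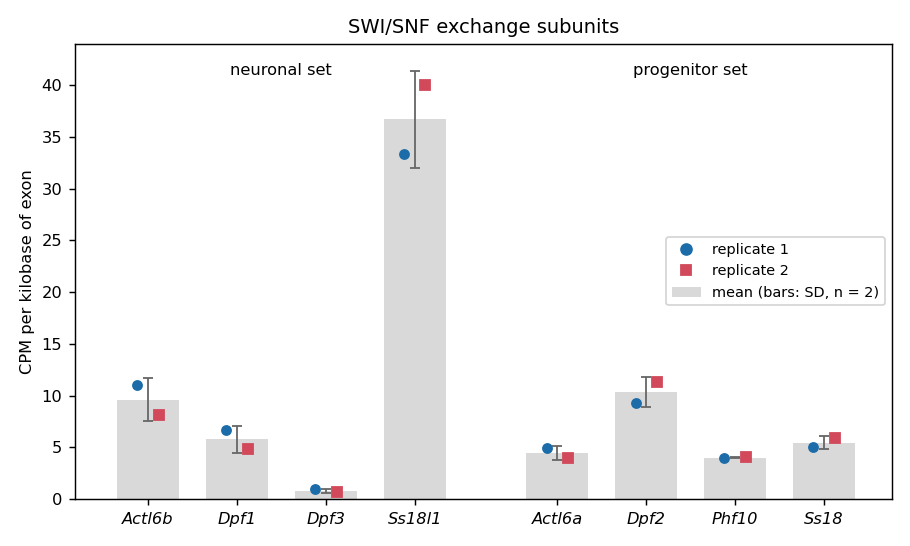
Level in CPM per kilobase of exon of SWI/SNF subunits of the neuronal set and of the progenitor set, with bars for the mean, error bars for SD (n = 2) and a point for each library. On this scale Ss18l1 is far above Ss18 and Actl6b above Actl6a. Dpf1 is above Phf10 but below Dpf2, and Dpf3 is below both Phf10 and Dpf2.

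The ISWI family pairs an ATPase with a large accessory subunit, often of the BAZ type. Smarca5 (SNF2H) stood at 7.43 and 8.81 CPM per kb and Smarca1 (SNF2L), the form linked to differentiated neurons, at 3.49 and 3.61. The ratio of Smarca5 to Smarca1 was 2.13 in replicate 1 and 2.44 in replicate 2. Of the BAZ subunits, Baz1b (WSTF), deleted in Williams syndrome, was the highest at 15.5 and 15.4 CPM per kb. Baz2a (TIP5), which silences ribosomal RNA genes, stood at 7.48 and 6.45, and Baz2b at 5.01 and 5.0. Baz1a (ACF1), the nucleosome-spacing partner of Smarca5, was at 0.0625 CPM per kb in replicate 1 and 3.30 in replicate 2. Of the listed ISWI partners, 6 of 6 were detected, among them Bptf, the large subunit of the NURF complex, at 17.9 and 21.2 CPM per kb. The remaining Smarc ATPases work at DNA damage and replication forks. Smarcal1, an annealing helicase, stood at 22.5 and 20.8 CPM per kb and Smarcad1 at 2.65 and 3.59.

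CHD remodellers carry paired chromodomains. Chd3 and Chd4, alternative ATPases of the NuRD deacetylase complex, were the highest, with Chd3 at 72.8 and 64.5 CPM per kb and Chd4 at 25.3 and 28.0. The ratio of Chd3 to Chd4 was 2.88 and 2.31. Chd5, the third NuRD ATPase and one restricted largely to neurons and testis, was at 6.41 and 5.24 CPM per kb, a ratio to Chd4 of 0.253 and 0.187. Their NuRD partners were all detected (9 of 9), with Rbbp7, a histone-binding subunit, at 49.2 and 103 CPM per kb. In subfamily I, Chd1, which works with elongating RNA polymerase, was at 8.14 and 11.8 CPM per kb, and Chd2, mutated in epileptic encephalopathy, at 8.11 and 7.73. For Chd2, 19.3% of exon bases overlap other genes. In subfamily III, Chd9 (7.99 and 6.94 CPM per kb) was above Chd8 (4.56 and 5.76), which is linked to autism, and Chd6 (4.46 and 4.05). Chd7, mutated in CHARGE syndrome and active in neural progenitors, was the lowest CHD gene at 1.58 and 1.68 CPM per kb.

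**Figure D3:**
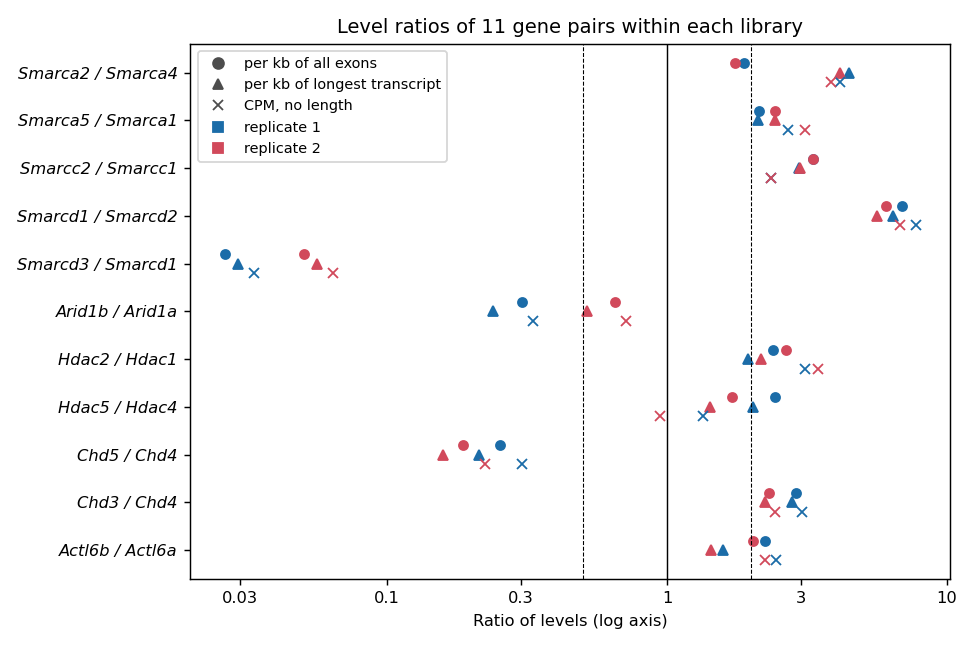
Ratio of levels (log axis) for 11 pairs of related subunits in replicate 1 and replicate 2, computed per kilobase of all exons (circles), per kilobase of the longest transcript (triangles) and from CPM alone (crosses). Dashed lines mark ratios of 0.5 and 2, and 8 pairs lie beyond them in both libraries per kilobase of all exons.

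ARID factors outside SWI/SNF covered a wide range of levels. Arid4a, a partner of the retinoblastoma protein and of the Sin3 deacetylase complex, stood at 29.5 and 27.2 CPM per kb, and its paralogue Arid4b at 3.63 and 4.2. The size of this gap depends on the length used. Arid4b has 16965 exon bases but 5864 in its longest transcript, and Arid4a has 5615 and 4998. Without a length correction they were at 166 and 153 CPM (Arid4a) and 61.5 and 71.2 CPM (Arid4b). Arid5b, a DNA-binding partner of the histone demethylase Phf2, was at 10.2 and 25.5 CPM per kb. The remaining factors were low, with Arid3a at 1.07 and 1.04, Arid3b at 0.673 and 0.425, and Arid5a at 0.290 and 0.271 CPM per kb. Arid3c was near the limit of detection, since a count of 0 would allow up to 0.0958 CPM in replicate 1 and 0.0917 CPM in replicate 2.

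The libraries were then compared member by member, as log2 ratios of replicate 2 to replicate 1 on totals scaled by the trimmed mean of M-values (TMM), with a prior count of 2. These ratios compare 2 libraries and not conditions, and no p-value is given. Of the 46 members with a mean of at least 1 CPM, 41 differed by less than 1.5-fold and 5 by more (background 26.9% of 13089 genes). At 2-fold or more, 2 members were higher in replicate 2 (background 4.51% of 13089 genes) and 0 were lower (background 5.75%). Those shares, 4.35% and 0%, are near or under the background, so the count is no result about the family. The median log2 ratio was 0.05 over the members and -0.01 over all genes at that level. The 95% counting interval, which covers counting error only, excluded 0 for 34 members (73.9%), against 72.9% of all genes.

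**Figure D4:**
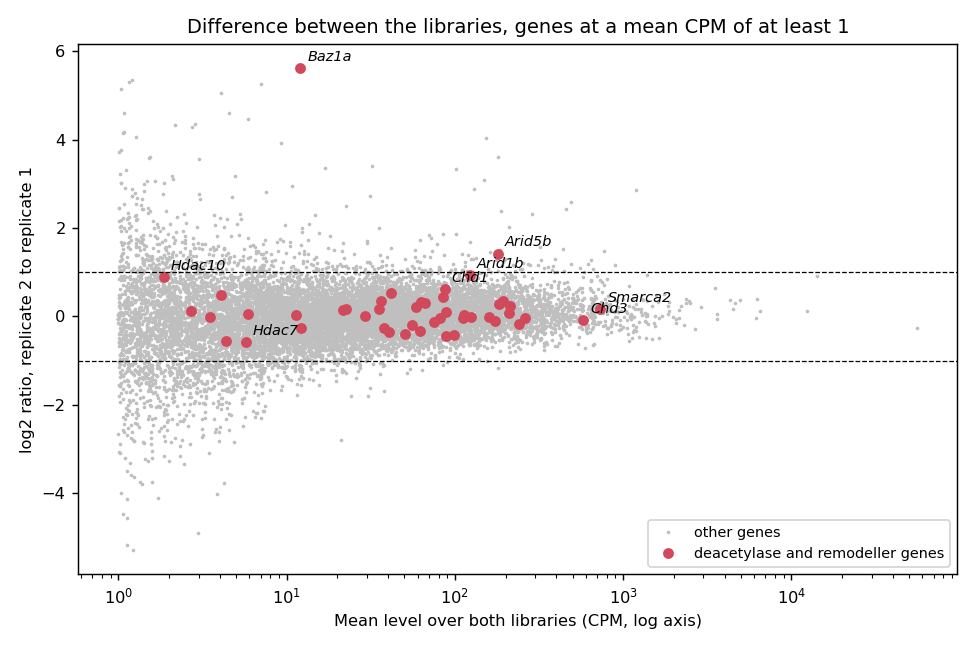
Log2 ratio of replicate 2 to replicate 1 against mean CPM (log axis) for the 13089 genes at a mean of at least 1 CPM, with the 46 deacetylase and remodeller genes in red and dashed lines at 2-fold. Baz1a lies at the top of the plot, at 5.62, and Arid5b at 1.42, while most of the family stays within the cloud.

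With a prior count of 2, Baz1a had the largest ratio of the 13089 genes at a mean of at least 1 CPM (rank 1). With a prior count of 0.5 it ranked 4 there, and it ranked 1 of the 8442 genes at a mean of at least 10 CPM. Its mean of 12 CPM passed both filters only through replicate 2, so these ranks are no separate support for the difference. It had 14 counts in replicate 1 but 772 in replicate 2 (0.447 and 23.6 CPM). The log2 ratio was 5.62, with a 95% counting interval of 5.06 to 6.69, a 49.3-fold difference on that scale. Baz1a lies on chromosome 12 (54892989 to 55014348, minus strand, GRCm38), and 4.83% of its exon bases overlap another annotated gene, on the same strand. Among the 6 genes within 250 kb at a mean of at least 1 CPM, log2 ratios ran from -0.69 to 1.49. The nearest on either side were Cfl2 at -0.16 and 2700097O09Rik at 1.33. Its ATPase partner Smarca5 differed little (57.8 and 68.5 CPM, log2 ratio 0.34), as did the related subunits Baz1b (0.08), Baz2a (-0.12) and Baz2b (0.09).

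Arid5b was the other member past 2-fold. It had 3201 counts in replicate 1 and 8401 in replicate 2, or 102 and 257 CPM, a log2 ratio of 1.42 (95% counting interval 1.36 to 1.48) and rank 247 of 13089. The gene lies on chromosome 10 (68092520 to 68278740, minus strand). Arid1b came next at 87.4 and 157 CPM (0.94, interval 0.87 to 1.01), while its paralogue Arid1a was at 263 and 220 CPM (-0.17). Arid1b lies on chromosome 17 (4994332 to 5347656, plus strand). Hdac10 was at 42 and 78 counts (0.89, interval 0.36 to 1.5) and Chd1 at 2223 and 3358 counts (0.62, interval 0.55 to 0.70). These 5 were the only members past 1.5-fold towards replicate 2 (background 12.6%), and 0 members were past 1.5-fold in the other direction (background 14.3%). The lowest ratios were those of Hdac7 (-0.58), Arid3b (-0.56), Smarcd1 (-0.45), Arid2 (-0.42) and Hdac11 (-0.39).

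**Figure D5:**
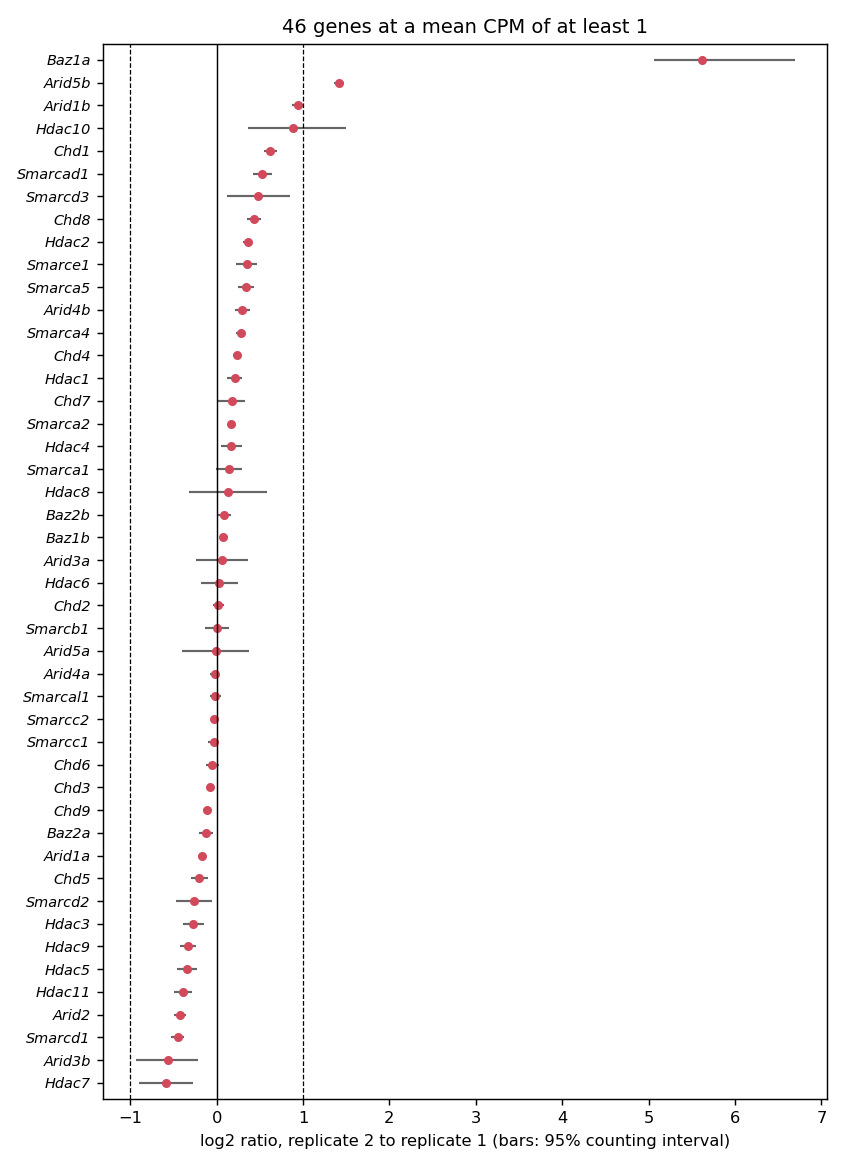
Log2 ratio of replicate 2 to replicate 1 for each of the 46 genes at a mean of at least 1 CPM, with 95% counting intervals as bars and dashed lines at 2-fold. Baz1a (5.62) and Arid5b (1.42) lie beyond the line, and Hdac7 (-0.58) is the lowest.

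Activity-regulated genes and markers of several cell types also differed between the same libraries, in both directions. Of 16 activity-regulated genes, 8 passed 2-fold towards replicate 2 (50% against the background of 4.51%) and 0 towards replicate 1. In all, 12 had a ratio above 0 and 4 below. Their summed level was 883 and 4116 CPM, much of it from Egr3 at 304 and 2071 CPM. Inhba was at 28.8 and 332 CPM, while Egr1 (112 and 86.2 CPM, -0.29) and Npas4 (4.82 and 2.35 CPM, -0.92) were lower in replicate 2. Earlier results of these libraries were known when this list was written.

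Among cell type markers, granule cell markers summed to 4785 and 4842 CPM, with 0 of 8 past 2-fold. Progenitor and newborn neuron markers summed to 98.2 and 344 CPM. Of 5 such markers at a mean of at least 1 CPM, only Sox11 (63.3 and 312 CPM) was past 2-fold, 3 had ratios below 0, and Eomes and Igfbpl1 had 0 counts in both. Oligodendrocyte precursor markers were mixed, with sums of 14.2 and 21.5 CPM. Of these, 2 of 5 passed 2-fold towards replicate 2, and Sox10 (2.78 and 1.35 CPM, -0.92) and Olig1 (3.93 and 2.05 CPM, -0.83) were lower there. GABAergic markers summed to 122 and 160 CPM, with 2 of 6 past 2-fold towards replicate 2 and 1 towards replicate 1. Mossy cell markers summed to 59.9 and 36.1 CPM, with all 4 at a mean of at least 1 CPM lower in replicate 2 and 2 of them past 2-fold. CA pyramidal markers (143 and 106 CPM) and oligodendrocyte markers (190 and 143 CPM) had 5 of 6 lower in replicate 2 and 0 past 2-fold. Astrocyte markers summed to 51.4 and 60.9 CPM, with 1 of 5 past 2-fold towards replicate 2. Endothelial markers summed to 17.5 and 18.0 CPM with 0 of 5 past 2-fold, and microglial markers to 2.59 and 2.26 CPM. The part of these shifts in the Baz1a, Arid5b and Arid1b values was not tested.

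Other genes of these complexes were set beside the members. Of 79 listed chromatin genes outside the naming rule, all 79 were detected, 3 passed 2-fold towards replicate 2 (3.8%) and 2 towards replicate 1 (2.53%). Those shares lie near or under the background of 4.51% and 5.75%, so the counts are no result about these genes. Those higher were Rbbp7 (143 and 299 CPM, log2 ratio 1.16), the Sin3 subunit Sap30 (8.75 and 21.0 CPM, 1.35) and the TBP-removing ATPase Btaf1 (39.6 and 116 CPM, 1.65). Those lower were the SWI/SNF subunits Bcl7c (5.69 and 1.74 CPM, -1.58) and Gltscr1 (49.3 and 22.3 CPM, -1.05). The scaffold Sin3b was at 48.9 and 87.9 CPM (0.94), while Sin3a was at 67.1 and 67.9 CPM (0.11). Of 9 histone acetyltransferases, which oppose the deacetylases, all were detected and 0 were past 2-fold, with Crebbp at 428 and 375 CPM and Ep300 at 249 and 197 CPM. The corepressor scaffold Ncor1, which activates Hdac3, was at 671 and 541 CPM (-0.22).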

How the data were processed

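The authors deposited raw counts per gene symbol, 1 table per library. STAR 2.0.0e, HTSeq and build mm10 are named per the submitters' processing notes; the annotation is not given in the sources used here, nor is a strand setting, so reads of a gene and an antisense partner cannot be told apart. The HTSeq summary lines and the line unknown were left out of totals; gene lines held 65.0% and 64.9% of all lines. CPM was computed on these totals. Exon lengths came from GENCODE M21 (GRCm38, the same build as mm10) for 23945 of 32531 symbols and for 95.7% of detected genes. Ratios used edgeR 4.0.16 (TMM, prior count 2) with exact Clopper-Pearson intervals of 95%. The floor for a count of 0 is 3 counts. Reads carry no molecular identifiers, so intervals and floors cover counting error only.

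The ratio step was run on simulated data, which checks the calculation only and says nothing about the spread between these libraries. There is 1 group, so no test between conditions was made. Over all genes the chi-square statistic of the 2 libraries was 67.8 times its degrees of freedom, so they are not copies of 1 library. All members of the naming rule could be named, with other chromatin genes, activity genes and cell markers taken from written lists. The members and lists were chosen with earlier results of these data known. The alternatives were other scalings (library totals, DESeq2 1.42.0 size factors, totals without Rn45s and Lars2), a prior count of 0.5, other filters, another length, a length and GC fit, and each library alone. The median was 8.98 CPM per kb for INO80 and SRCAP genes, 4.56 for other SNF2-like ATPases and 11.9 for corepressor partners.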

Additional observations from a re-analysis of the deposited data

Results flagged for a closer look

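The counts that HTSeq set aside entered no comparison. Reads on no annotated feature made up 16.7% (replicate 1) and 17.0% (replicate 2) of the total over every line. Multiply aligned reads made up 15.7% and 15.5%, and reads that touched several genes 2.61% and 2.56%. Members whose exons overlap other genes, such as Smarcd3 and Hdac4, can lose reads to the last class. With 2 libraries, no check for an outlying sample can be made.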

How the results depend on the processing

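No paired analysis was possible because there is only 1 group. Of 48 members, 39 to 46 were detected under the other thresholds, totals or single libraries. The median level was 5.88 CPM per kb in each library alone, 6.03 with totals without Rn45s and Lars2, 10.4 with the longest transcript as length, and 6.96 over detected members only. The count at least 2-fold higher in replicate 2 stayed at 2 or 3 under every scaling, prior count, filter and the length and GC fit. It was 5 at 1.5-fold and 1 without Baz1a, an alternative chosen after the data were seen. With no filter, 1 member (Smarca5-ps, 8 and 1 counts) was 2-fold lower. The median log2 ratio ran from -0.05 with library totals to 0.05. Library totals moved 25 of 46 single ratios outside their counting interval and reversed none past 2-fold. Pairs at least 2-fold apart numbered 7 to 10 against 8. Depth limits Arid3c, Smarca5-ps and, in replicate 1, Baz1a.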
